A study of Mus musculus with 6 samples.

Results

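Genes that copy DNA in S phase and genes that divide the cell in G2 and mitosis (G2/M) were compared in cultured mouse microglia kept at 21% oxygen (normoxia) or 1% oxygen (hypoxia) for 6 h. A fixed list of 42 symbols named 24 S-phase and 18 G2/M genes, and a gene was measured where an array row carried its symbol and no other. Of these, 40 were measured, 23 in S phase and 17 in G2/M, among 30176 genes on the arrays. Mcm7 lay only on a row shared with other symbols and Ccnb1 had no row under this symbol, so neither has a value here. Each measured gene had a single row. Each culture pooled the microglia of 5 newborn (P0) mice of the outbred CD1 stock, for which no genetic change is named. Cultures 3, 4 and 6 each supplied 1 normoxia and 1 hypoxia array, which makes 6 arrays in 2 groups of 3, and the paired arrays share their pups. Values are log2 intensities, so a difference of 1 is a doubling, and levels of different genes are not set against each other.

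A cell enters S phase when cyclin-dependent kinases release the E2F transcription factors from the retinoblastoma protein. E2F factors then switch on the genes for the replicative helicase, the polymerases and the enzymes that make deoxynucleotides. Mitotic genes follow later, through the MuvB complex with B-MYB and FOXM1, which acts at promoter elements called the cell cycle genes homology region (CHR), often beside CCAAT boxes bound by NF-Y. Hypoxia is sensed by enzymes that need oxygen to mark HIF for destruction, and ribonucleotide reductase, which supplies deoxynucleotides, also needs oxygen. Microglia are the resident macrophages of the brain and divide in culture when growth factors such as CSF1 are present.

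Beside the label of the cells, which was not tested, stand 14 microglial markers, whose mean level lay between 11.1 and 11.2 on all 6 arrays. Of these, 0 of 14 were called between oxygen levels or between cultures. Over all genes 0.209% were called higher and 0.0166% lower in hypoxia, and 1.13% between cultures. Array medians over all rows lay between 5.84 and 5.92, and arrays of 1 group correlated at 0.994 to 0.996 over genes. Fibroblast and pericyte markers were also present and moved with both comparisons. Of 11 such markers, all 11 had a log2 fold change above 0 in hypoxia (median 0.43), beside 18030 of all 30176 genes. In the main test 0 passed, and with the culture as a block 2 were called higher, beside 0.421% of all genes. Between cultures 9 of 11 differed, beside 1.13% of all genes. A rise in hypoxia was not particular to this list. Values above 0 were held by 9 of 9 astrocyte, 10 of 10 endothelial, 8 of 9 oligodendrocyte lineage and 8 of 9 neuron markers. Their medians were 0.13, 0.11, 0.06 and 0.09, and 0 passed in either oxygen fit. Of the 14 microglial markers 5 lay above 0 and 9 below. The mean level of the 11 markers was 8.66 in normoxia and 8.96 in hypoxia in culture 3. It was 7.40 and 8.01 in culture 4, and 7.47 and 7.84 in culture 6. The part of these cells in the results below was not tested. In bulk RNA, fewer dividing cells and less RNA per dividing cell cannot be told apart.

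S-phase genes were lower in hypoxia on the median, and the median of the G2/M genes lay near 0. The median log2 fold change, hypoxia minus normoxia, was -0.19 over the 23 S-phase genes and -0.003 over the 17 G2/M genes, beside 0.03 over all genes. Of the S-phase genes 21 of 23 had a value below 0, and of the G2/M genes 9 of 17, beside 12146 of all 30176 genes. The order of the groups was the same within every culture. In culture 3 the median change was -0.23 for S-phase and -0.06 for G2/M genes. In culture 4 it was -0.24 and -0.06, and in culture 6 it was -0.10 and 0.03. The difference between the group medians was thus -0.17, -0.18 and -0.13 in cultures 3, 4 and 6 (mean -0.16 ± 0.03, SD, n = 3 cultures), and it is a description with no test.

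**Figure D1:**
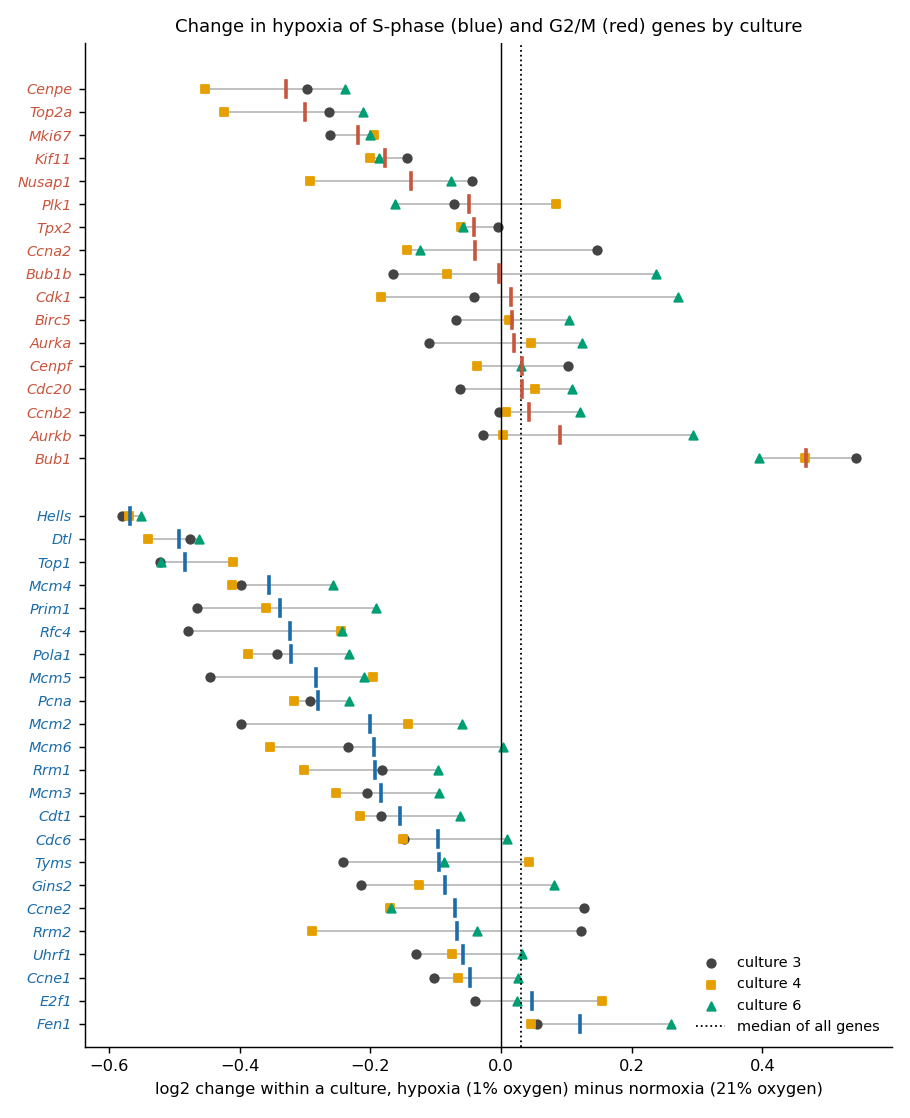
Log2 change within each culture, hypoxia minus normoxia (x axis), for each measured gene (y axis, S-phase names in blue, G2/M names in red). Points are cultures 3, 4 and 6, coloured ticks are the means and the dotted line is the median of all genes at 0.03. All 3 points lie below 0 for 13 of 23 S-phase and 6 of 17 G2/M genes.

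The size of this difference depended on how the arrays were scaled. Over all 6 arrays it was -0.19 with the deposited values, -0.10 after cyclic loess and -0.12 after a further quantile normalization. The S-phase median was -0.24 after median centring, -0.14 after cyclic loess and -0.15 after quantile normalization, and the G2/M median was -0.05, -0.04 and -0.03. After cyclic loess the difference was -0.15, -0.13 and -0.04 in cultures 3, 4 and 6. Genes of different brightness had shifted unequally. With all genes cut into 4 equal classes by mean level, the median change was -0.07 in the brightest class and 0.03 in the next. The brightest class held 6 S-phase genes with a median of -0.19. Its 1 G2/M gene, Mki67, lay below that at -0.22, and 1 gene does not give an order of the groups. The second-brightest held 12 S-phase genes with a median of -0.19 and 11 G2/M genes with a median of -0.04. In the class below it the median over all genes was 0.06. There 5 S-phase genes had a median of -0.10 and 5 G2/M genes one of 0.03. The dimmest class held neither. Leaving out single arrays gave -0.08 (without hypoxia in culture 4) to -0.24 (without hypoxia in culture 3).

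Sequences upstream of the genes were set beside these values, since the groups differ in the factors that drive them. RefSeq promoter windows, 250 bases before to 50 after a start on GRCm38.p6, were given for 20 of the measured S-phase genes (22 windows) and 14 of the G2/M genes (14 windows). No entry was used for Mcm4, Ccne2, Gins2, Tpx2, Ccna2 and Aurkb. On both strands, 3 forms of an E2F site (TTTCGCGC, TTTGGCGC and TTTCCCGC) were searched, and at least 1 was in 40.9% of S-phase windows, 7.14% of G2/M windows and 1.84% of all 32851 windows. A CHR (TTTGAA or TTCGAA) was in 9.09%, 78.6% and 19.2% of these windows. A CCAAT box was in 54.5%, 85.7% and 37.4%, and the core bound by HIF (ACGTG or GCGTG) in 63.6%, 78.6% and 43.8%. The HIF core forms share 4 letters with each other and are short, so that many promoters hold one. The windows also differed in base composition, with a median GC content of 63.2% in S-phase, 57.8% in G2/M and 52.7% in all windows.

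**Figure D2:**
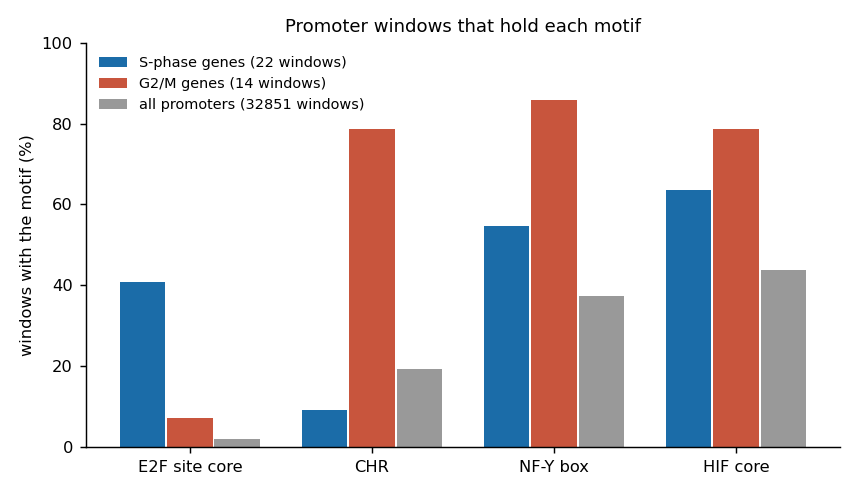
Share of promoter windows in percent (y axis) with each motif (x axis) for 22 S-phase windows, 14 G2/M windows and all 32851 windows. E2F forms stood in 40.9% of S-phase windows and a CHR in 78.6% of G2/M windows.

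The windows of 7 genes are shown, from 130 bases before the start to 30 after it, because these genes passed one of the tests described below. They are read 5′ to 3′ on the strand of the gene, and capitals mark an E2F form, a CHR or a CCAAT box on either strand.
Hells promoter, chr19:38930860-38931019, plus strand: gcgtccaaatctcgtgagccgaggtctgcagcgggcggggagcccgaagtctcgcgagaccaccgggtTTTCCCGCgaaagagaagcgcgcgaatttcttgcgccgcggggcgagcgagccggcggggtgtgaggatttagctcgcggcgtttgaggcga
Dtl promoter, chr1:191575515-191575674, minus strand: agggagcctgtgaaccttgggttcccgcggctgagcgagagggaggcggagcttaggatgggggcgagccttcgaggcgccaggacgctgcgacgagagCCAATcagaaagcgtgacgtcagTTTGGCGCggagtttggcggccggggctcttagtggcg
Top1 promoter, chr2:160645767-160645926, plus strand: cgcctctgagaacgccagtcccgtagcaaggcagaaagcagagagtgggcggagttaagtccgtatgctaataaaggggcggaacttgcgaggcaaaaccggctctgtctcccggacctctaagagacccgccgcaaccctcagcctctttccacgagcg
Mki67 promoter, chr7:135716350-135716509, minus strand: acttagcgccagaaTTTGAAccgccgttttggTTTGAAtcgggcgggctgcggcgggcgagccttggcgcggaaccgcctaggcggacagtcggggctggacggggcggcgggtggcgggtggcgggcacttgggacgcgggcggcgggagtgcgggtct
Kif11 promoter, chr19:37376252-37376411, plus strand: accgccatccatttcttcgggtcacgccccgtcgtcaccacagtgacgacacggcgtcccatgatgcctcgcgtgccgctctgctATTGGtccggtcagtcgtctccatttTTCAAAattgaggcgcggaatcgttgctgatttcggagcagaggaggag
Bub1 promoter, chr2:127831830-127831989, minus strand: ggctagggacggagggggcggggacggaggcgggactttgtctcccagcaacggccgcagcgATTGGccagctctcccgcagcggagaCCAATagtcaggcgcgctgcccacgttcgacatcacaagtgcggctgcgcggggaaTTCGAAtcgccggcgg
Ccnb2 promoter, chr9:70421525-70421684, minus strand: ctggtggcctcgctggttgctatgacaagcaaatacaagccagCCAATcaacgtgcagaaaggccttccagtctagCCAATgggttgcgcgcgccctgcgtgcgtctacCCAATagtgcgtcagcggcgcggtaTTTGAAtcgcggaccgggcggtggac
Hells held the form TTTCCCGC starting 62 bases before the start, and Dtl held TTTGGCGC starting 8 bases before it. Top1 held none of the capitalised motifs in the stretch shown. Kif11, Bub1 and Ccnb2 each held a CHR and at least 1 CCAAT box, and Mki67 held CHR letters at 2 places in the stretch shown. A match is a description of letters and does not show that a factor was bound.

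Among S-phase genes, Hells fell. Hells, or LSH, is a chromatin remodelling ATPase of the SNF2 family needed for DNA methylation. Its values in cultures 3, 4 and 6 were 6.93, 6.93 and 6.92 in normoxia and 6.35, 6.36 and 6.37 in hypoxia. The groups lay apart and the cultures were nearly identical within each of them. The log2 fold change was -0.57 (SE 0.06, 95% interval -0.71 to -0.42), with an adjusted p of 0.0159 in limma over all genes and 0.0246 with the culture as a block. Hells was 1 of 40 genes called lower in the main test, beside 0.0166% of all genes, and 0 of 40 were called higher, beside 0.209%. Leaving out an array kept its value between -0.56 and -0.57, but the adjusted p was between 0.0788 and 0.109 without any array except hypoxia in culture 3, without which Hells still passed.

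Dtl and Top1 passed only with the culture as a block. Dtl, or CDT2, is the receptor through which the CRL4 ubiquitin ligase degrades CDT1 during S phase. Dtl had values of 6.32, 6.44 and 6.22 in normoxia and 5.84, 5.90 and 5.76 in hypoxia in cultures 3, 4 and 6. Every hypoxia value lay below every normoxia value. Its log2 fold change was -0.49 (SE 0.08), with an adjusted p of 0.0985 without the block and 0.0421 with it. Top1, the topoisomerase that relieves supercoils ahead of forks and of transcription, measured 10.59, 9.92 and 10.27 in normoxia and 10.07, 9.51 and 9.75 in hypoxia. The groups overlapped, because culture 3 was high and culture 4 low at both oxygen levels, yet the value dropped within every culture. Its log2 fold change was -0.48, with an SE of 0.19 and an adjusted p of 0.447 without the block. With the block the SE was 0.06 and the adjusted p 0.0460. With the block 3 of 40 genes were thus called lower, beside 0.116% of all genes, and 0 of 40 higher, beside 0.421%.

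The helicase and polymerase genes moved by less, and none passed. MCM2 to MCM7 form the ring that unwinds DNA, and GINS2 belongs to a complex that activates it. The 6 measured genes of this set had log2 fold changes from -0.36 (Mcm4) to -0.09 (Gins2), with a median of -0.20. In 4 of the 6 every hypoxia array lay below every normoxia array. Mcm4, picked here as the most negative of the set, had values of 7.98, 8.05 and 7.85 in normoxia and 7.58, 7.64 and 7.59 in hypoxia (adjusted p = 0.249 and 0.0947 with the block). The polymerase that starts each strand is made of POLA1 and the primase PRIM1 among other subunits, and its log2 fold changes were -0.32 (Pola1) and -0.34 (Prim1), with the groups apart in both. For the sliding clamp Pcna and its loader subunit Rfc4 they were -0.28 and -0.32, and again the groups did not overlap. Over all S-phase genes the groups lay apart with hypoxia below in 10 of 23, beside 7.58% of all genes. Hypoxia was lower in all 3 cultures for 13 of 23, beside 17.5%. An unadjusted p under 0.05 with a lower value was reached by 10 of 23, beside 6.10% of all genes, and by 0 of 17 G2/M genes. In the other direction 1 of 40 genes reached it, beside 4.28% of all genes. These counts drew closer in the blocked fit, with 11 of 23 S-phase and 4 of 17 G2/M genes (Cenpe, Top2a, Mki67 and Kif11) lower, beside 9.26% of all genes. Only Bub1 was higher at that level with the block, 1 of 40, beside 7.68%.

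The remaining S-phase genes had log2 fold changes from -0.19 to 0.12, a range that overlapped that of the helicase set (-0.36 to -0.09). The origin licensing genes Cdc6 and Cdt1, which load the helicase, had log2 fold changes of -0.10 and -0.15. The ribonucleotide reductase subunits were at -0.19 (Rrm1) and -0.07 (Rrm2), and thymidylate synthase (Tyms) was at -0.10. Uhrf1, which brings the maintenance methyltransferase to newly copied DNA, was at -0.06. Cyclin E, the partner of CDK2 at the start of S phase, is encoded by Ccne1 and Ccne2, with log2 fold changes of -0.05 and -0.07. Ccne1 measured 6.83, 6.93 and 6.70 in normoxia and 6.73, 6.87 and 6.73 in hypoxia, so the groups overlapped (adjusted p = 0.843). Only E2f1 and Fen1 had values above 0. E2f1, an activating E2F, measured 8.29, 8.36 and 8.37 in normoxia and 8.25, 8.51 and 8.39 in hypoxia, with a log2 fold change of 0.05 (SE 0.08, 95% interval -0.15 to 0.24, adjusted p = 0.841). Fen1, the endonuclease that trims flaps between Okazaki fragments, measured 7.29, 7.42 and 7.24 in normoxia and 7.35, 7.46 and 7.50 in hypoxia. It was above normoxia in every culture, but the groups overlapped (0.12, SE 0.08, adjusted p = 0.629). The S-phase genes thus ranged from -0.57 to 0.12.

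**Figure D3:**
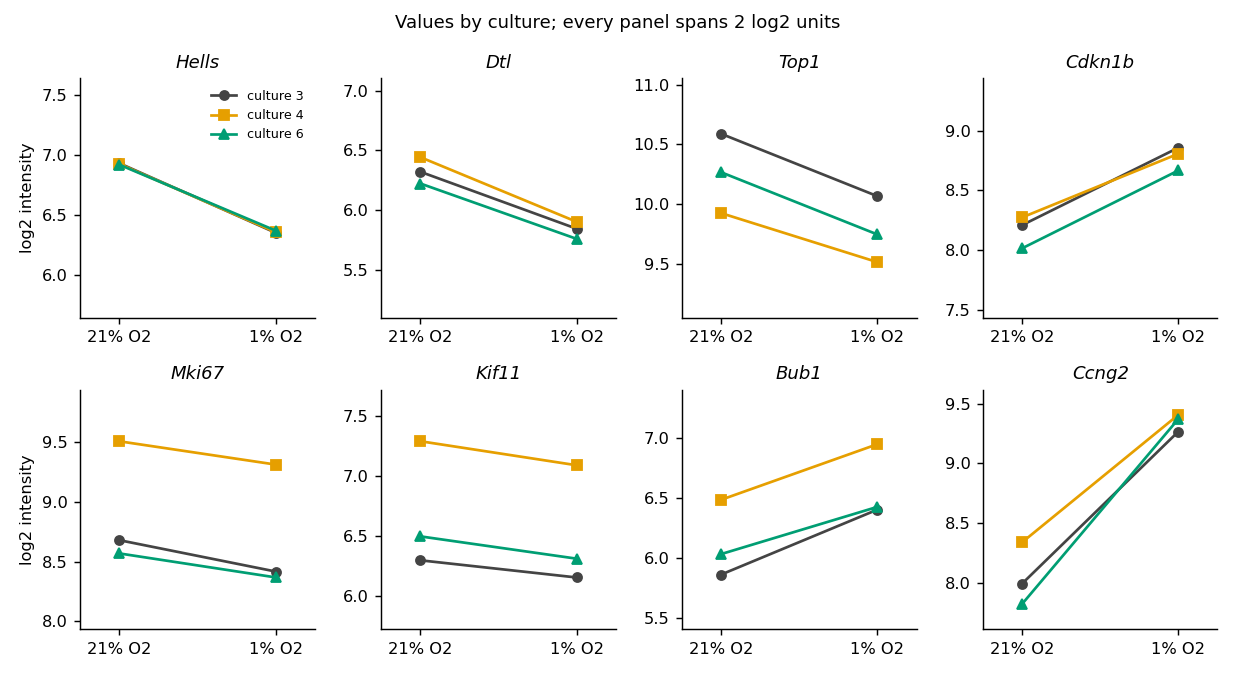
Log2 intensity (y axis) at 21% and 1% oxygen (x axis) for 8 genes, with a line for each culture and 2 log2 units on every y axis. Hells starts and ends at nearly the same value in the 3 cultures, whereas Mki67 and Kif11 in culture 4 lie above the other cultures at both oxygen levels.

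No G2/M gene passed the oxygen comparison, with or without the block. Bub1, a kinase of the spindle checkpoint, had the largest positive value of the 40 genes. Its values in cultures 3, 4 and 6 were 5.86, 6.49 and 6.03 in normoxia and 6.40, 6.95 and 6.43 in hypoxia. It was higher in hypoxia in every culture, but the normoxia array of culture 4 lay above the hypoxia arrays of cultures 3 and 6. The log2 fold change was 0.47 (SE 0.19), with an adjusted p of 0.468 without the block and 0.0517 with it. Bub1b, a checkpoint protein of the same family, was at -0.003, and Cdc20, the activator of the anaphase-promoting complex, was at 0.03. Bub1 and Fen1 were the 2 of 40 genes that were higher in all 3 cultures, beside 24.8% of all genes, and in 0 of 40 did hypoxia lie wholly above normoxia, beside 8.24%.

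Other G2/M genes lay to either side of 0. Cenpe, a kinetochore motor, measured 6.69, 7.25 and 6.62 in normoxia and 6.39, 6.79 and 6.38 in hypoxia, which overlapped (log2 fold change -0.33, SE 0.18, adjusted p = 0.566 and 0.119 with the block). For Top2a, the topoisomerase that untangles sister chromatids, the arrays read 7.29, 7.90 and 7.18 in normoxia and 7.02, 7.48 and 6.97 in hypoxia (-0.30, SE 0.20, adjusted p = 0.641 and 0.138 with the block). Both were lower in hypoxia within each culture, and both were highest in culture 4. Mki67, Kif11, Nusap1 and Tpx2 were also lower in all 3 cultures, with log2 fold changes of -0.22, -0.18, -0.14 and -0.04, so 6 of 17 were, beside 17.5% of all genes. The mitotic kinases Plk1, Aurka and Aurkb and the passenger protein Birc5 lay between -0.05 and 0.09. Aurkb, at the upper end, measured 7.18, 7.58 and 7.26 in normoxia and 7.15, 7.58 and 7.55 in hypoxia, which overlapped (SE 0.15, adjusted p = 0.825). Cdk1, the kinase that drives entry into mitosis, was at 0.01, and Cenpf at 0.03. Without the block the intervals of these genes were wide, and with it they were narrower. For Mki67 the 95% interval of the log2 fold change was -0.93 to 0.49 without the block and -0.37 to -0.07 with it. The SE with the block was 0.06 for Mki67 and 0.07 for Bub1, Cenpe and Top2a.

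For the G2/M genes culture 4 stood further from the other cultures than hypoxia from normoxia, a contrast chosen with the values known. Culture 4 minus the mean of cultures 3 and 6 had a median of 0.48 over the 17 G2/M genes (1.39-fold), 0.10 over the 23 S-phase genes and 0.01 over all genes. Culture 4 was the highest at both oxygen levels in 16 of 17 G2/M genes and in 9 of 23 S-phase genes, beside 13.9% of all genes. The exception was Cdk1, whose highest hypoxia value was in culture 6. The median SD between the cultures was 0.30 in normoxia and 0.24 in hypoxia for G2/M genes, 0.09 and 0.12 for S-phase genes, and 0.08 and 0.12 for all genes.

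**Figure D4:**
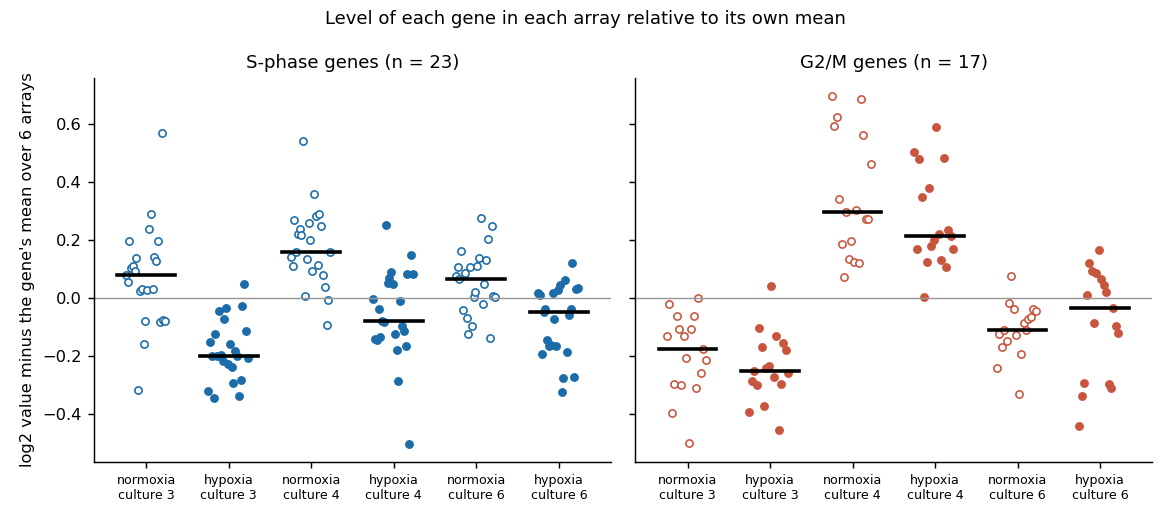
Log2 value of each gene minus its own mean over the 6 arrays (y axis) on each array (x axis), with a bar at the median. Open points are normoxia and filled points hypoxia. The G2/M medians of culture 4 are 0.30 and 0.21 and those of the other cultures lie below 0, whereas the S-phase medians are above 0 in the 3 normoxia arrays and below 0 in the 3 hypoxia arrays.

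In a test of culture with oxygen in the fit, 5 of 17 G2/M genes and 0 of 23 S-phase genes passed, beside 1.13% of all genes. The test asks whether the 3 cultures differ in any way, so its p-values below are not for culture 4 alone. Mki67, whose protein coats mitotic chromosomes and marks cycling cells, measured 8.68 and 8.42 in culture 3, 9.51 and 9.31 in culture 4 and 8.57 and 8.37 in culture 6, in normoxia and hypoxia in turn. Both arrays of culture 4 lay above all others, by 0.90 on the mean (1.87-fold, adjusted p = 0.00681). Kif11, the motor that separates spindle poles, measured 6.30 and 6.15, then 7.29 and 7.09, then 6.50 and 6.31 in cultures 3, 4 and 6, which puts culture 4 higher by 0.88 (adjusted p = 0.00692). Ccna2, the cyclin of S and G2 phase, measured 7.03 and 7.18, then 8.06 and 7.91, then 7.26 and 7.14 (0.83, adjusted p = 0.0237). Its change in hypoxia was -0.04 and turned sign between cultures. Ccnb2, a mitotic cyclin, measured 6.83 and 6.83, then 7.47 and 7.48, then 7.02 and 7.14 (0.52, adjusted p = 0.0430), and Bub1 was higher in culture 4 by 0.54 (adjusted p = 0.0481). In these genes too the culture 4 arrays stood above those of the other cultures, with the overlap of oxygen levels already described.

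These culture calls rested on few arrays. Without either array of culture 3, 0 of 30176 genes passed, and the adjusted p of Mki67 was 0.109 and 0.0957. Without the normoxia or the hypoxia array of culture 4, Bub1 (0.127 and 0.132) and Ccnb2 (0.102 and 0.0750) missed the threshold, whereas Mki67, Kif11 and Ccna2 still passed. Only Mki67 and Kif11 passed after median centring or cyclic loess. Of the S-phase genes, Rrm2 had the largest positive culture 4 difference (0.60) and Top1 the largest negative one (-0.45). In the test over all 3 cultures their adjusted p was 0.0945 and 0.0513. Top1 was spread over the cultures, with means of 10.33, 9.72 and 10.01 in cultures 3, 4 and 6. Among the settings that kept all 6 arrays, Top1 passed with array weights, with an intensity trend or with low-intensity genes left out, and Rrm2 in none. Fibroblast and pericyte markers were highest in culture 3 and close to each other in cultures 4 and 6, and the microglial markers differed by at most 0.08 between any pair of cultures on the median. The part of other cells in these culture differences was not tested.

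**Figure D5:**
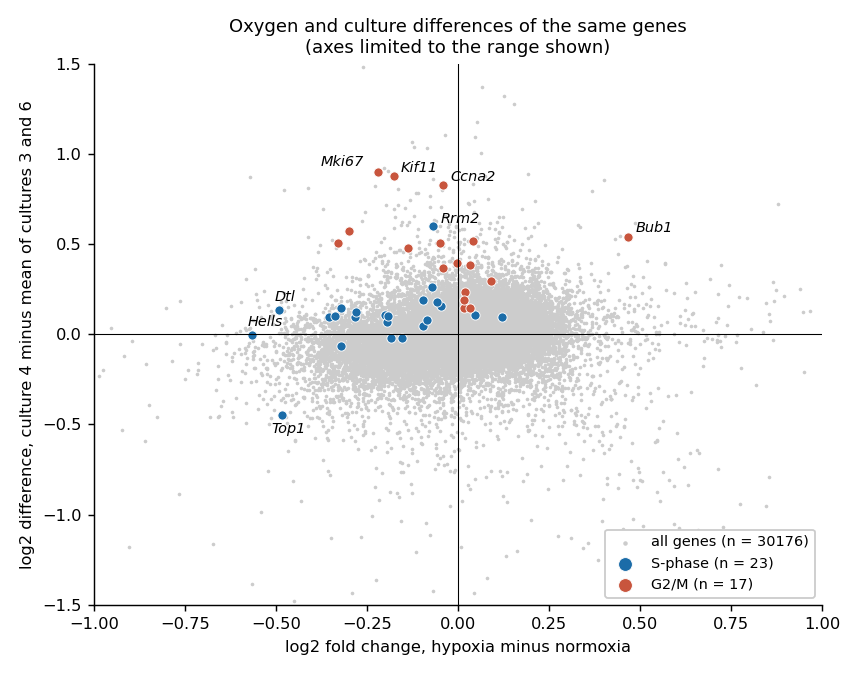
Log2 fold change in hypoxia (x axis) against the log2 difference of culture 4 from the mean of cultures 3 and 6 (y axis), for 23 S-phase genes, 17 G2/M genes and all 30176 genes in grey. S-phase genes spread to the left of 0 and G2/M genes lie above 0 on the y axis, from Hells at -0.57 and -0.002 to Mki67 at -0.22 and 0.90.

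Further genes of the same processes were read from lists written from general knowledge. Of 51 other replication genes 0 passed (median log2 fold change -0.10). A value below 0 was held by 39, beside 12146 of all 30176 genes. In 15 hypoxia lay wholly below normoxia, beside 7.58% of all genes. The most negative were Orc4 (-0.40) and Orc2 (-0.37), subunits of the origin recognition complex, and Tipin (-0.34), of the fork protection complex. The most positive were E2f2 (0.13), E2f7 (0.06) and Ung (0.06). An unadjusted p under 0.05 with a lower value was reached by 9 of 51, beside 6.10% of all genes, and by 13 of 51 with the block, beside 9.26%. Of 63 other mitotic genes 0 passed (median -0.04), from Knl1 (-0.38), Smc2 (-0.34) and Cdc25a (-0.30) to Cdc25b (0.17). Of these 63, 43 had a value below 0 and 20 above it, beside 12146 of all 30176 genes below 0. Hypoxia was lower in all 3 cultures for 25 of the 63 and for 25 of the 51 replication genes, beside 17.5% of all genes. In 4 of the 63 hypoxia lay wholly below normoxia, beside 7.58%. Of the mitotic genes 2 of 63 were lower at an unadjusted p under 0.05, beside 6.10% of all genes, and 11 of 63 with the block, beside 9.26%. Culture 4 was the highest at both oxygen levels in 46 of these 63 and in 16 of the 51 replication genes, beside 13.9% of all genes. In the test of culture Aspm, Kif23, Kif20a and Pbk passed (adjusted p = 0.0409, 0.0426, 0.0463 and 0.0489). Of the 51 replication genes 0 did, beside 1.13% of all genes.

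Among regulators of G1, Ccng2 had the clearest increase, whereas the list as a whole was split. Of 25 cyclins of G1, CDK inhibitors and related genes, 1 was called higher in the main test, beside 0.209% of all genes. With the block 2 were called higher, beside 0.421%, and 0 were called lower in either fit. Ccng2, an unconventional cyclin that restrains the cell cycle, measured 7.99, 8.34 and 7.82 in normoxia and 9.27, 9.41 and 9.37 in hypoxia in cultures 3, 4 and 6. Every hypoxia value was above every normoxia value, by 1.30 on the mean (SE 0.13, 2.45-fold, adjusted p = 0.00818 and 0.00904 with the block). Without hypoxia in culture 6 its adjusted p was 0.0788. Cdkn1b, the CDK inhibitor p27, measured 8.21, 8.27 and 8.02 in normoxia and 8.86, 8.81 and 8.67 in hypoxia. These groups also lay apart (0.61, SE 0.09, 1.53-fold), with an adjusted p of 0.0648 without the block and 0.0239 with it. The antiproliferative gene Btg1 was at 0.47 (adjusted p = 0.329). The lowest values of the list were those of E2f5 (-0.30), Ccng1 (-0.21) and Rbl1 (-0.18), and the median of the list was 0.02. Of the 25 genes 13 lay above 0 and 12 below, beside 18030 of all 30176 genes above 0.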

How the data were processed

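Genome-wide expression was measured in 6 one-colour Affymetrix arrays. The authors deposited log2 intensities per transcript cluster, which RMA had background-corrected, quantile-normalized and summarised over probes. Tools listed in the submitters' processing notes are RMA, Affymetrix Expression Console and limma, with the build mm10 and no versions. How rows were filtered is not stated in the sources used here. RMA makes the array distributions alike, so a change shared by all genes would not be seen.

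Of 72688 rows, 30638 had 1 gene symbol in the platform annotation, 2176 had several and 39874 had none. The brightest row per symbol by its mean over all arrays was kept, giving 30176 genes. Groups and cultures came from the sample labels. Hypoxia minus normoxia was fitted in limma 3.58.1 (lmFit, eBayes; R 4.3.3) without a block. P-values were adjusted by Benjamini-Hochberg over all genes, and the threshold was 0.05. The labels pair arrays by culture, and arrays of one culture deviated from their groups together (correlations 0.57, 0.40 and 0.22, and -0.50 to 0.14 between cultures). The fit with the culture as a block was therefore given beside the main one for each named gene whose call changed and for some others. SEs and oxygen p-values not marked as from the block are from the main fit. Cultures were compared by a moderated F test with oxygen in the fit. All adjusted p-values are from limma. The script was tested on simulated data.

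Of the 40 genes, values of all 6 arrays are given for those past the threshold in any of the 3 fits. They are also given for those with the 3 most negative and the 3 most positive changes in each group, and the others by range and count. For the further lists and cell type markers they are given only for Ccng2, Cdkn1b and Ccnd2. Mcm4 was added after its values were seen. The genes and lists were chosen with earlier results of these data known. Motifs were matched as exact letters with Python 3.11.15. Alternatives were the block, median centring, cyclic loess, quantile normalization, array weights, a minimum of 5 on the log2 scale, the mean of rows, an intensity trend and leaving out each array. Signal over background was not used here, and 3 arrays per group limit the precision.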

Additional observations from a re-analysis of the deposited data

How the results depend on the processing

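Of 326 values recomputed under other settings, 255 kept their direction, their side of the threshold and their size. With the culture as a replicate block 127 genes were higher and 35 lower (63 and 5 without it), and 3 of the 40 genes were lower in place of 1. The block changed no other call among the named genes except that of Cdkn1b. Array weights gave 116 higher and 32 lower, median centring 2 lower and quantile normalization 3 lower. The S-phase minus G2/M difference was -0.10 after cyclic loess and -0.12 after quantile normalization. Of the 40 genes, those that differed between cultures numbered 2 after median centring, 2 after cyclic loess, 3 after quantile normalization, 9 with array weights, 8 without low-intensity genes and 9 with an intensity trend. Leaving out single arrays gave 27 to 40 genes higher, 1 to 16 lower, 0 to 1 of the 40 lower, a G2/M median of -0.12 to 0.092, an S-phase minus G2/M difference of -0.24 to -0.078 and 0 to 9 of the 40 differing between cultures (this last alternative was chosen after seeing the data). The S-phase median stayed between -0.23 and -0.15 in these. An array left out also unbalances the cultures. Signs turned only in genes that passed nowhere in the oxygen comparison. With array weights Mki67 was 0.12, Ccna2 0.23, Kif11 0.14 and Ccne1 0.0090, and Ccnb2 was -7.36e-08 after median centring. Without single arrays Mki67 ranged from -0.53 to 0.075, Ccna2 from -0.29 to 0.26, Kif11 from -0.46 to 0.12, Ccnb2 from -0.12 to 0.22, Ccne1 from -0.11 to 0.0094 and E2f1 from -0.016 to 0.12. Apart from the refits with fewer arrays, the cause was not tested.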

Other observations

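Histone genes were taken by symbol, and the list mixes copies expressed in S phase with linker histones of other expression, such as the oocyte gene H1f8. Of 31 measured, 0 passed in limma. At an unadjusted limma p under 0.05, 2 were lower and 2 higher, beside 6.10% and 4.28% of all genes. The median log2 fold change was -0.02, and 19 had a value below 0, beside 12146 of all 30176 genes. The lowest was H2bc3 (-0.33, adjusted p = 0.447 in limma) and the highest H1f8 (0.23, adjusted p = 0.473). Many of these genes are near-identical copies, so probes may be shared between them.

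Ccnd2, the cyclin D2 gene, ran opposite to the mitotic genes across cultures. It measured 9.81, 7.49 and 9.31 in normoxia and 9.46, 8.12 and 9.02 in hypoxia in cultures 3, 4 and 6. Culture 4 was thus the lowest at both oxygen levels, by -1.59 against the mean of the others. The adjusted p of Ccnd2 was 0.0402 in the limma F test over all 3 cultures. Its log2 fold change in hypoxia was -0.003.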
